A study of Drosophila melanogaster with 12 samples.

Results

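The genes described here encode proteins of the cytosolic ribosome of the fruit fly Drosophila melanogaster, measured in the heads of males from populations selected for aggressive behaviour and from neutral populations. The members are the probe sets that the array's annotation assigns to 1 gene whose symbol starts with RpL, RpLP or RpS and a digit, which leaves out the mitochondrial ribosomal proteins (mRp symbols). The rule found 37 of the 10844 genes so named on the array, each with 1 of the 14010 probe sets, with 22 of the large subunit and 15 of the small subunit. No filter on signal was applied. A further 2 probe sets that the annotation assigns to several genes including a ribosomal protein gene were not counted.

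The 12 arrays come from 4 populations with 3 arrays each, all of the Canton-S strain at generation 21, and each array holds RNA from heads of males aged 5 days. Aggressive I and aggressive II were bred from males chosen for aggressive behaviour. Neutral I and neutral II were bred from males taken without choice from a cage of 120, after 15 to 30 aggressive males had been removed. By the study's account this was meant to lower aggression and had no significant effect, so the neutral populations are a reference but not an unselected stock. Males were frozen in groups of about 120 within the same short period of the day and stored in groups of about 40, so each value is an average over many flies. Whether the 3 arrays of a population hold separate cultures is not stated, so p-values measure only the spread between these samples, which may be technical. For 2 neutral I arrays the line label lacks the word selected, and they were kept in the group of their titles.

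The ribosome joins amino acids into protein. Its small subunit reads the messenger RNA and its large subunit forms the peptide bond, and each subunit is an assembly of ribosomal RNA and many proteins that are needed in matched amounts. In Drosophila, losing 1 copy of many of these genes gives the Minute phenotype, with slow development and thin bristles. Most are expressed in every tissue, while several duplicated genes are known mainly from the germline.

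The members were divided into 3 classes from their names and background knowledge, after their values were seen. Differences in level or spread between the classes are therefore descriptions and not tests. The first held 27 standard genes, of which 16 encode large subunit proteins (RpL3, RpL10Ab, RpL17, RpL23, RpL27, RpL28, RpL29, RpL32, RpL36A, RpL37-1, RpL37A, RpL39, RpL40, RpLP0, RpLP1 and RpLP2) and 11 encode small subunit proteins (RpS7, RpS12, RpS15, RpS18, RpS20, RpS21, RpS26, RpS27A, RpS28b, RpS29 and RpS30). The second held 7 second copies of a standard gene (RpL10Aa, RpL22-like, RpL37-2, RpS5b, RpS10a, RpS19b and RpS28a). The third held 3 genes, RpLP0-like, RpL7-like and RpL24-like, whose yeast relatives MRT4, RLP7 and RLP24 are assembly factors of the large subunit and not parts of the finished ribosome. The genes are spread over the chromosomes, with 13 on 3R, 9 on 2R, 8 on 2L, 4 on 3L and 3 on X.

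Values are linear intensities from MAS5, the Affymetrix signal algorithm, which the authors had scaled so that all arrays share the same trimmed mean. They show a gene's signal relative to the rest of the array and not the amount of RNA per head. Because heads are mixtures, a shift in the share of a cell type and a shift in RNA per cell cannot be told apart. Of the markers of head tissues, 4 of 4 for photoreceptors, 3 of 6 for neurons, 3 of 3 for glia, 3 of 4 for head fat body, 2 of 3 for muscle and 1 of 3 for antenna lay above the array median. The brightest photoreceptor marker was Arr1, with a mean intensity of 196368, and the brightest neuronal one was nSyb, with 12349. Of other tissues, 0 of 5 accessory gland, 0 of 5 midgut and 0 of 3 ovary markers and 1 of 5 testis markers lay above it. Array medians ranged from 962 to 1050, and no 2 arrays held the same values.

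The standard genes sat near the top of the measured range. Of the 27, 26 had a mean intensity at or above the 98.3rd percentile of all probe sets, and RpS29, a zinc-binding protein of the small subunit head, was at the 90.7th. The second copies were spread far lower. RpL10Aa lay at the 10.6th percentile, RpS19b at the 10.9th, RpL22-like at the 15.6th, RpS28a at the 23.0th and RpS10a at the 30.9th. RpS5b at the 71.7th percentile and RpL37-2 at the 82.3rd were the other two of that class. The relatives of assembly factors were at the 67.1st percentile for RpLP0-like, the 75.7th for RpL7-like and the 93.3rd for RpL24-like. These positions describe the probe sets and do not rank transcripts, since a probe set's brightness also depends on its probes, and probes of closely related copies may detect each other's transcripts.

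The first comparison asked whether the ribosomal protein genes differed between the aggressive and the neutral populations. Differences are log2 values of the aggressive minus the neutral arrays, from limma with population as a random block, and adjusted p-values are Benjamini-Hochberg values over all 13966 probe sets that are not controls. Of the 37 members, 0 passed an adjusted p of 0.05 in this fit, against 0.0716% of all probe sets. At an unadjusted p of 0.05, 1 member passed in the higher direction and 0 in the lower, against 3.62% and 3% of all probe sets. The smallest adjusted p of any member was 0.742. The 6 aggressive and 6 neutral arrays did not separate for any of the 37 members. Of all probe sets, 0.523% had every aggressive array above every neutral array and 0.301% had every one below. With shares this small, 0 of 37 does not set the members apart from other probe sets. Separation of arrays was counted on the centred log2 values.

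The differences were small and mostly of 1 sign. Of the 37 members, 35 lay above 0, with a median of 0.12 that corresponds to a 1.09-fold signal, and 53.2% of all probe sets lay above 0 with a median of 0.014. Other bright probe sets lay between these values, with 72.2% of the 673 non-members in the brightest 5% above 0 and a median of 0.064. These non-members are not matched to the standard genes in signal. On single arrays the median of the standard genes was 1.84 to 2.18 log2 units above that of the bright non-members. The large subunit had 22 of 22 above 0 with a median of 0.13, and the small subunit had 13 of 15 with a median of 0.11. Among the standard genes the medians of the subunits were alike, at 0.12 for the 16 of the large subunit and 0.12 for the 11 of the small subunit. Under quantile normalisation, which gives all arrays the same distribution of values, 16 of 22 large subunit and 9 of 15 small subunit members were above 0, with medians of 0.031 and 0.027.

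**Figure D1:**
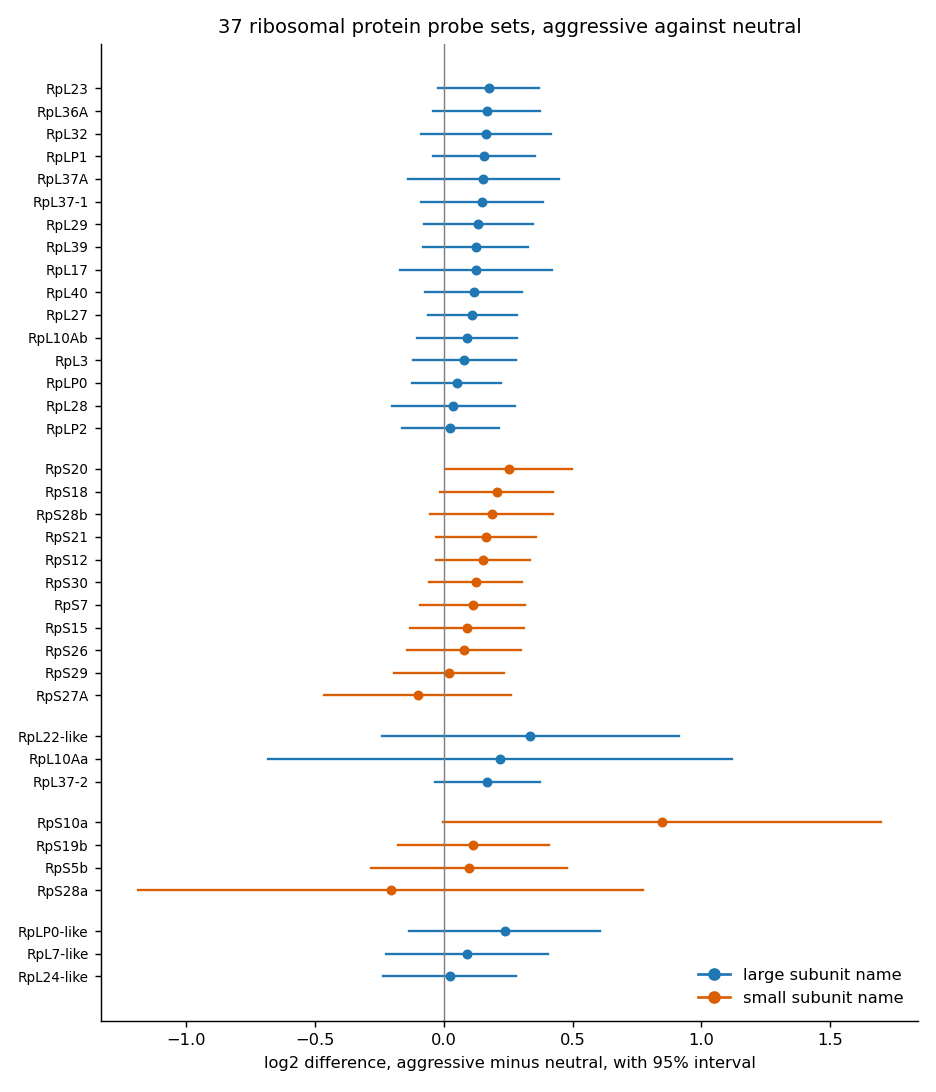
Difference between the aggressive and the neutral populations for each of the 37 ribosomal protein probe sets, as the log2 difference from limma on the horizontal axis, with bars for the 95% confidence interval. Standard genes lie close together, with point estimates between -0.10 and 0.25, and 1 standard gene, RpS20, has an interval that stays above 0. The intervals count 6 arrays per regime, which come from 2 populations.

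The precision of the standard genes was higher than that of a typical probe set, with a median standard error of 0.096 against 0.17 over all probe sets. A typical probe set is far dimmer, and the bright non-members were not set beside the standard genes here. The upper ends of the 95% intervals of the standard genes lay between 0.22 and 0.50, and the lower ends between -0.46 and 0.0066. A common difference of the size of the median could therefore not be told from 0 for nearly all single genes. These errors and intervals count the 6 arrays of a regime as nearly independent (consensus correlation 0.0113), although they come from 2 populations. With 1 mean per population, 0 members had an unadjusted limma p under 0.05.

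RpS20, a protein of the small subunit head, had the largest difference among the standard genes. Its intensity was 151464, 173571 and 189952 in aggressive I and 191658, 164732 and 132907 in aggressive II, against 132390, 143215 and 162711 in neutral I and 137651, 137380 and 135012 in neutral II. The aggressive arrays were mostly the higher ones, but the third aggressive II array was below 5 of the 6 neutral arrays. The log2 difference was 0.25 ± 0.11 (SE, n = 6 arrays each), with an interval of 0.0066 to 0.50 and a limma adjusted p of 0.742.

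RpS18, which lies at the interface of the subunits in the head of the small one, had the next largest. Its intensity was 165280, 188893 and 168323 in aggressive I and 177168, 171396 and 144397 in aggressive II, against 140806, 133522 and 179270 in neutral I and 155615, 143311 and 140488 in neutral II. The groups overlapped through the third array of aggressive II and the third array of neutral I. The log2 difference was 0.21 ± 0.10 (SE, n = 6 each), with a limma adjusted p of 0.767.

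RpS28b, a small protein near the exit of the messenger RNA channel, had intensities of 91372, 96397 and 100728 in aggressive I and 105551, 105416 and 82503 in aggressive II, against 75977, 88319 and 82283 in neutral I and 99909, 93153 and 78635 in neutral II. The first neutral II array reached the level of the aggressive I arrays. Its regime estimate was 0.19. RpL23, a large subunit protein at the subunit interface, had 62888, 65417 and 66637 in aggressive I and 63619, 62670 and 54314 in aggressive II, against 51013, 55690 and 57768 in neutral I and 57994, 57467 and 56355 in neutral II. Here 5 of the 6 aggressive arrays were above all neutral arrays, and the third aggressive II array was among the lowest. Its regime estimate was 0.18.

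RpL32, known as rp49 and widely used in Drosophila as a reference gene for quantitative PCR, is outside the rule for named genes and was chosen after its values were seen. Its intensity was 113345, 132352 and 112666 in aggressive I and 122057, 117295 and 87422 in aggressive II, against 90255, 101342 and 110627 in neutral I and 112677, 102944 and 97889 in neutral II. The lowest and the highest of the 12 arrays were both aggressive ones. The log2 difference was 0.16 ± 0.12 (SE, n = 6 each, limma adjusted p = 0.845), and the highest array was 1.51-fold above the lowest.

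The stalk of the large subunit, which recruits translation factors, is built on RpLP0 with copies of RpLP1 and RpLP2 bound to it. RpLP1 had 135790, 137897 and 131325 in aggressive I and 142195, 140363 and 125738 in aggressive II, against 107904, 128730 and 126214 in neutral I and 136702, 126191 and 113838 in neutral II, a log2 difference of 0.16 ± 0.091 (SE, n = 6 each, limma adjusted p = 0.814). RpLP2 had 141535, 141248 and 129435 in aggressive I and 134974, 138989 and 123144 in aggressive II, against 123449, 130964 and 129566 in neutral I and 147350, 133424 and 140377 in neutral II, a log2 difference of 0.026. For RpLP1 the lowest arrays were neutral ones, while for RpLP2 the highest array was a neutral one. RpLP0 had a log2 difference of 0.050, with means of 105811 ± 5968 for aggressive I, 104884 ± 6042 for aggressive II, 104409 ± 9747 for neutral I and 101783 ± 1901 for neutral II (SD, n = 3 each). The estimates for RpLP0 and RpLP2 turned below 0 under quantile normalisation and when arrays were centred on the brightest genes.

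RpL40 and RpS27A are each made as a fusion to ubiquitin, the tag that marks proteins for degradation, and the fusion is cut after translation. RpL40 had 97371, 96193 and 97634 in aggressive I and 102174, 97487 and 83102 in aggressive II, against 85328, 93152 and 89623 in neutral I and 90567, 88849 and 87751 in neutral II. The third aggressive II array was the lowest of the 12, and the other aggressive arrays were above all neutral ones. The log2 difference was 0.12 ± 0.086 (SE, n = 6 each, limma adjusted p = 0.853).

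RpS27A was the only standard gene with a regime estimate below 0, at -0.10 ± 0.17 (SE, n = 6 each, 95% interval -0.46 to 0.26, limma adjusted p = 0.943). Its intensity was 51933, 52249 and 63177 in aggressive I and 57648, 52254 and 38633 in aggressive II, against 42632, 56268 and 85094 in neutral I and 54964, 54216 and 53839 in neutral II. The sign rested on the third neutral I array, the highest by far, since without it the estimate was 0.0064. RpS27A also had the largest spread of the standard genes, with its highest array 2.20-fold above its lowest.

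**Figure D2:**
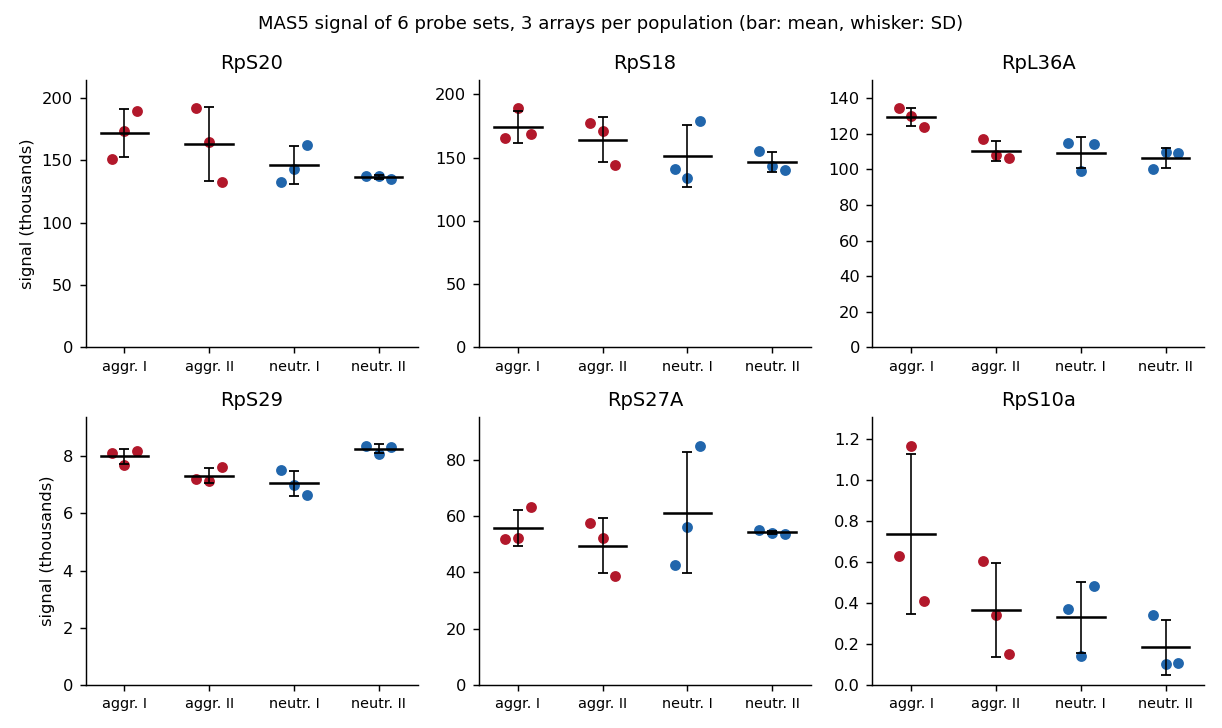
Intensity on the vertical axis, on a linear scale that starts at 0 in each panel, for single ribosomal protein genes in the 4 populations, with a point for each array, a bar at the mean and a whisker for the SD of 3 arrays. Of the 6 genes shown, RpL36A has all aggressive I points above the rest, RpS29 is low in aggressive II and neutral I, and RpS20 has means of 171662 in aggressive I and 136681 in neutral II.

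The second copies varied widely. RpS10a and RpL22-like had estimates above all standard genes and RpS28a had one below them, while RpL10Aa, RpL37-2, RpS19b and RpS5b lay inside the standard range. RpS10a, a duplicate of the small subunit gene RpS10b known from the germline, had 631, 1168 and 412 in aggressive I and 603, 342 and 149 in aggressive II, against 368, 140 and 482 in neutral I and 340, 104 and 107 in neutral II. The aggressive I arrays were high and the neutral II arrays low, with overlap in between. The log2 difference was 0.85 ± 0.39 (SE, n = 6 each), with an interval of -0.0029 to 1.70 and a limma adjusted p of 0.749, on a signal at the 30.9th percentile.

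RpL10Aa had 101, 126 and 101 in aggressive I and 90.8, 56.8 and 322 in aggressive II, against 34.3, 362 and 371 in neutral I and 42.4, 11.0 and 13.6 in neutral II. The neutral populations held both the highest and the lowest values, and the regime difference was 0.22 ± 0.42 (SE, n = 6 each). RpL22-like had 94.0, 105 and 300 in aggressive I and 91.7, 417 and 319 in aggressive II, against 143, 103 and 228 in neutral I and 141, 114 and 114 in neutral II, a log2 difference of 0.34. RpS28a had 104, 830 and 87.9 in aggressive I and 204, 147 and 140 in aggressive II, against 392, 70.6 and 146 in neutral I and 121, 366 and 657 in neutral II, a log2 difference of -0.21 ± 0.45 (SE). For each of these 3 genes, arrays of the same population differed several-fold.

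RpS19b, known from the germline, stayed between 96.5 and 204 on all 12 arrays, with a log2 difference of 0.11. RpS5b, also a germline copy, had means of 2519 ± 664 for aggressive I, 2310 ± 674 for aggressive II, 2198 ± 96.1 for neutral I and 2258 ± 453 for neutral II (SD, n = 3 each), a log2 difference of 0.098. RpL37-2 had 3995, 4611 and 4132 in aggressive I and 3900, 4030 and 4442 in aggressive II, against 3724, 4140 and 3967 in neutral I and 3052, 3794 and 3937 in neutral II, a log2 difference of 0.17. Its partner RpL37-1 had a log2 difference of 0.15, and for both genes the groups overlapped.

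Of the relatives of assembly factors, RpLP0-like had 2445, 2458 and 2214 in aggressive I and 1754, 1788 and 1819 in aggressive II, against 2278, 2033 and 1172 in neutral I and 1778, 1992 and 1515 in neutral II. Aggressive I was high throughout while aggressive II lay inside the neutral range, and the log2 difference was 0.24 ± 0.17 (SE, n = 6 each). RpL7-like had 2539, 2045 and 2881 in aggressive I and 2793, 3740 and 3160 in aggressive II, against 3262, 3161 and 2776 in neutral I and 2287, 2111 and 2617 in neutral II. In this gene aggressive II and neutral I were the high populations, and the regime difference was 0.090. RpL24-like had a log2 difference of 0.023, with single arrays between 8471 and 12532.

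The populations were then taken one by one, with limma on the 4 population means and the spread of all 12 arrays. The population mean was highest in aggressive I for 23 of the 27 standard genes and lowest in neutral I for 23 of 27. On each array the median log2 signal of the 27 genes was 16.83, 16.96 and 16.90 in aggressive I and 16.84, 16.80 and 16.55 in aggressive II, against 16.51, 16.64 and 16.74 in neutral I and 16.77, 16.70 and 16.66 in neutral II. Aggressive I and the first 2 aggressive II arrays were above all neutral arrays, and the third aggressive II array was below all neutral arrays but 1. The bright non-members showed the same pattern, so it was not particular to the ribosomal protein genes. Their median was 14.81, 14.78 and 14.83 in aggressive I and 14.78, 14.77 and 14.676 in aggressive II. In neutral I it was 14.669, 14.72 and 14.678, and in neutral II 14.72, 14.75 and 14.71. The 27 genes held 5.41 ± 0.11% of the summed intensity for aggressive I, 5.18 ± 0.31% for aggressive II, 5.00 ± 0.30% for neutral I and 5.05 ± 0.086% for neutral II (SD, n = 3 each).

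**Figure D3:**
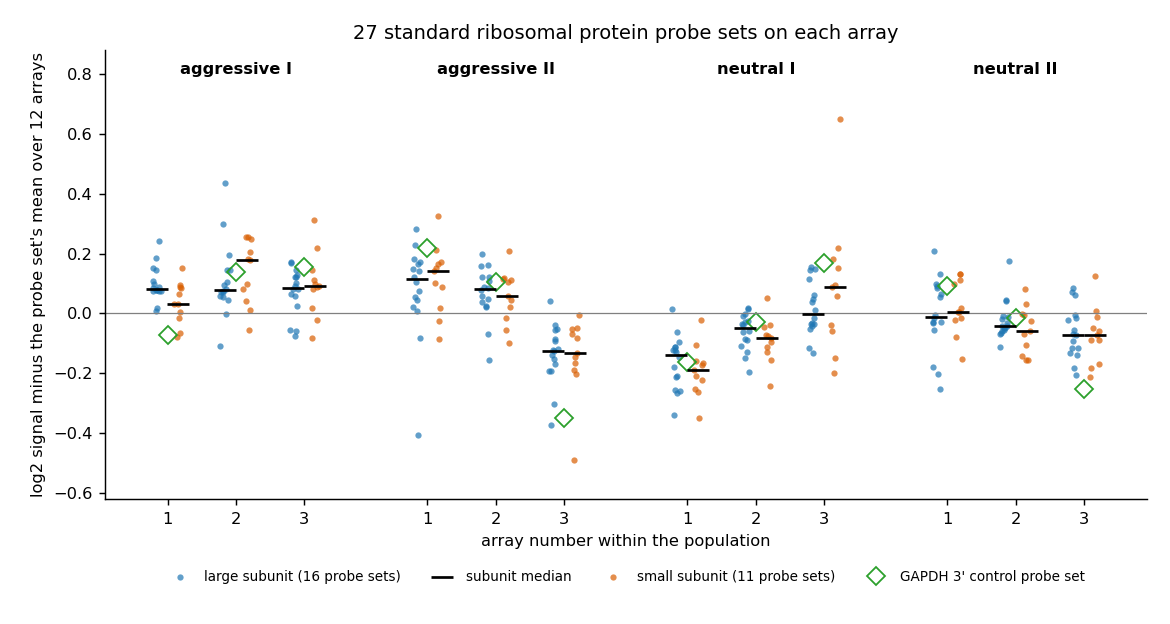
Log2 signal of each of the 27 standard genes minus its mean over the 12 arrays on the vertical axis, by array number within each population on the horizontal axis, with black bars at the subunit medians and diamonds for the GAPDH 3' control. The standard genes shift together from array to array, and the third array of aggressive II and the first array of neutral I lie lowest. Their median log2 signals after centring are 16.55 and 16.51, whereas the plotted values are not centred.

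The standard genes moved as a group between single arrays. In aggressive II, 23 of 27 had their lowest value on the third array and 20 of 27 their highest on the first. In neutral I, 23 of 27 had their lowest value on the first array and 15 their highest on the third. In neutral II, 18 of 27 were lowest on the third array, whereas in aggressive I each array was the lowest for 9 genes. Such counts were not taken for other probe sets. The median of the bright non-members was also highest on the first and lowest on the third aggressive II array. It was also lowest on the first neutral I and the third neutral II array, but highest on the second neutral I array.

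Controls on the arrays were set beside the order of the arrays by the standard genes, within each population. The 3' to 5' signal ratio of the GAPDH control probe sets, a common measure of RNA integrity and labelling, was 4.18, 5.03 and 4.85 in aggressive I and 4.79, 4.13 and 3.28 in aggressive II, against 3.55, 4.06 and 4.79 in neutral I and 3.99, 3.66 and 3.04 in neutral II. In all 4 populations the arrays had the same order by this ratio as by the median of the standard genes. The ratio of the eIF-4a controls gave that order in 1 of 4 populations and the mean of the hybridisation spikes in 2 of 4. The spikes averaged 13.89 (log2) for aggressive I, 13.90 for aggressive II, 13.63 for neutral I and 13.70 for neutral II. An 18S ribosomal RNA control probe set averaged 24192 ± 12240 for aggressive I and 8886 ± 678 for aggressive II (SD, n = 3 each). It averaged 9607 ± 2334 for neutral I and 10429 ± 5258 for neutral II (SD, n = 3 each). Its aggressive I arrays had 17640, 38318 and 16618, and the second neutral II array had 16192. On another 18S probe set, aggressive I had 8959, 32732 and 10526, and neutral II had 5658, 14824 and 9286. The part of these features in the ribosomal protein values was not tested.

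Against neutral I, aggressive I had 33 of 37 members above 0 with a median log2 difference of 0.23, where 56% of all probe sets were above 0 with a median of 0.042 and the bright non-members one of 0.14. Under quantile normalisation 24 of 37 were above 0, and the subunit medians were 0.040 for the large and 0.068 for the small subunit, against 0.22 and 0.25 as reported. After adjustment 0 members passed, against 0.15% of all probe sets. At an unadjusted p of 0.05, 6 members passed in the higher direction, against 6.03% of all and 138 of the 673 bright non-members. Unadjusted, 0 members passed in the lower direction, against 3.47% of all probe sets and 5 of the bright non-members. All 3 aggressive I arrays were above all 3 neutral I arrays for 19 of 37 members and below them for 0, where 10.4% of all probe sets and 271 of the 673 bright ones were above and 5.52% of all were below. Members that reached an unadjusted p of 0.05 included RpS21, RpL23, RpL36A, RpS12, RpS19b and RpS29.

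RpS21 and RpL36A, a protein at the exit site for transfer RNA, are outside the rule for named genes and are given because their p-values were the smallest of these 6. RpS21 had 113613, 127030 and 112531 in aggressive I and 95319, 98486 and 102079 in neutral I, without overlap. This was a log2 difference of 0.32 ± 0.11 (SE, n = 3 each), with a limma adjusted p of 0.411. RpL36A had 134177, 129996 and 124016 in aggressive I, against 116918, 108175 and 106389 in aggressive II, 114709, 99183 and 114277 in neutral I and 100153, 109670 and 109272 in neutral II. Every aggressive I array was above the other 9 arrays. Its log2 difference from neutral I was 0.31 ± 0.11 and from neutral II 0.30 ± 0.11 (SE, n = 3 each), with limma adjusted p-values of 0.433 and 0.414.

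Against neutral II, aggressive I had 32 of 37 members above 0 with a median of 0.14, where 53.7% of all probe sets were above 0 with a median of 0.026 and the bright non-members 0.076. Under quantile normalisation 23 of 37 were above 0, with subunit medians of 0.021 (large) and 0.012 (small), against 0.14 and 0.14 as reported. After adjustment 0 of 37 passed, against 0.308% of all probe sets, and 2 passed unadjusted in the higher direction and 0 in the lower, against 4.82% and 4.5%. The arrays did not overlap for 18 members, all higher in aggressive I, against 8.96% of all probe sets higher and 7.24% lower. Of the 673 bright non-members, 187 were higher and 67 lower without overlap. RpS10a had the largest estimate of any member here, at 1.60 ± 0.50 (SE, n = 3 each), a 3.03-fold difference with a limma adjusted p of 0.331. Both of these comparisons use the same aggressive I arrays.

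Aggressive II was set against the same neutral populations, with values that depended on single arrays. Against neutral I, 33 of 37 members were above 0 with a median of 0.086, beside 50.7% of all probe sets and a median of 0.059 for the bright non-members, and 0 passed after adjustment (0.122% of all probe sets did). Unadjusted, 0 members passed in either direction, against 3.47% of all probe sets in the higher one and 3.29% in the lower, and for 0 of 37 did the arrays separate (6.34% of all were higher and 5.89% lower). Against neutral II, 25 of 37 were above 0 with a median of 0.016, beside 47.6% of all probe sets and a median of -0.015 for the bright non-members, and 0 passed after adjustment (0.301% of all probe sets did). Here the arrays separated for 2 members in the higher direction and for 1 in the lower, against 5.8% and 7.8% of all probe sets. RpL10Aa and RpL7-like were the higher ones and RpS29 the lower. Unadjusted, 1 member passed in the higher direction and 0 in the lower, against 3.13% and 4.2% of all probe sets. That member was RpL7-like, with a log2 difference of 0.42 ± 0.17 (SE, n = 3 each, limma adjusted p = 0.615).

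These medians moved when single arrays were left out. Without the third aggressive II array, aggressive II minus neutral I had a median of 0.13 for the large and 0.18 for the small subunit, against 0.084 and 0.087 as reported, and aggressive II minus neutral II had 0.12 and 0.082, against 0.020 and 0.0088. Without the first aggressive II array, the medians were 0.043 and 0.042 against neutral I, and -0.020 and -0.0091 against neutral II. Without the first neutral I array, aggressive II minus neutral I had 0.049 and 0.092. Under quantile normalisation the medians were 0.020 and 0.020 against neutral I, with 22 of 37 members above 0, and -0.0053 and -0.027 against neutral II, with 16 of 37 above 0.

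**Figure D4:**
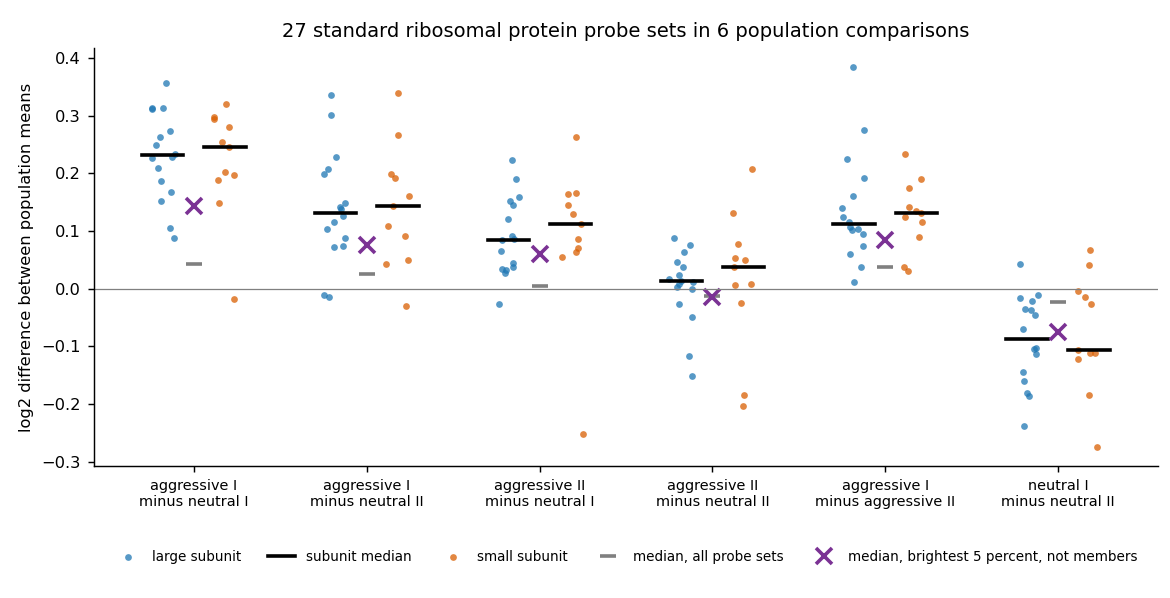
Log2 differences (vertical axis) of the 27 standard genes in 4 pairs of an aggressive and a neutral population and in the pairs of the same regime, with bars at the subunit medians and marks at the medians of all probe sets and of bright non-members. The large subunit median is 0.23 for aggressive I minus neutral I, 0.013 for aggressive II minus neutral II and 0.11 for aggressive I minus aggressive II.

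The populations of the same regime were compared in the same way. Aggressive I minus aggressive II gave 33 of 37 members above 0, including all 27 standard genes, with a median of 0.12, beside 55.6% of all probe sets and a median of 0.084 for the bright non-members. The subunit medians, 0.10 for the large and 0.14 for the small subunit, were 0.035 and 0.083 without the third aggressive II array, 0.15 and 0.20 without the first, and 0.029 and 0.059 under quantile normalisation. After adjustment 0 members passed, against 0.186% of all probe sets. The arrays did not overlap for 8 members, all higher in aggressive I, where 9.66% of all probe sets were higher and 6.12% lower. Of the 673 bright non-members, 184 were higher and 50 lower without overlap. Unadjusted, 2 members passed in the higher direction and 0 in the lower, against 5.64% and 3.97% of all probe sets. RpL37A, a zinc-binding protein of the large subunit outside the rule for named genes, had the largest log2 difference of the standard genes, at 0.38 ± 0.16 (SE, n = 3 each, limma adjusted p = 0.49). Its first aggressive II array, at 96610, was the lowest of all 12, and the other arrays ran between 111149 and 173007.

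Neutral I minus neutral II gave 8 of 37 members above 0, against 46.2% of all probe sets, with a median of -0.045 over all members and -0.10 over the 27 standard genes, beside -0.075 for the bright non-members. The direction depended on the scaling. With quantile normalisation 18 of 37 were above 0 and the large subunit median was 0.020, and with no centring 19 of 37 were above 0 and it was 0.010, against -0.039 as reported. The small subunit median was -0.033 and -0.056 under these settings, against -0.11 as reported. Without the first neutral I array the medians were -0.020 and -0.029. After adjustment 0 members passed, against 0.115% of all probe sets, and 1 passed unadjusted in each direction, against 2.92% higher and 3.72% lower. The arrays separated for 1 member in the higher direction and 5 in the lower, against 5.48% and 7.55% of all probe sets. Of the 673 bright non-members, 38 separated in the higher direction and 134 in the lower. Among the members RpL7-like was the higher one, and RpL23, RpL28, RpLP2, RpS21 and RpS29 were the lower ones. RpS29 had a log2 difference of -0.27 ± 0.10 (SE, n = 3 each, limma adjusted p = 0.672). RpL10Aa had the largest estimate, 1.33 ± 0.49 (SE, n = 3 each, limma adjusted p = 0.662), with the first neutral I array at 34.3 and the other two at 362 and 371. With that array and the third aggressive II array left out, a setting chosen after seeing the data, RpL10Aa was the only member to pass in this comparison, at 1.95 ± 0.17 (SE) and a limma adjusted p of 0.00726.

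The difference between aggressive and neutral was then compared between the I and the II populations, as aggressive I minus neutral I less aggressive II minus neutral II. The estimate was above 0 for 32 of 37 members, including all 27 standard genes, with a median of 0.20, beside 55.7% of all probe sets with a median of 0.054 and 0.16 for the bright non-members. The subunit medians, 0.18 for the large and 0.22 for the small subunit, were 0.024 and 0.049 under quantile normalisation, with 26 of 37 above 0, and 0.084 and 0.11 without the third aggressive II array. With the first neutral I array also left out, in the setting chosen after seeing the data, 11 of 22 large and 11 of 15 small subunit members were above 0, and the small subunit median was 0.055. After adjustment 0 of 37 passed, against 0.2% of all probe sets. At an unadjusted p of 0.05, 2 members passed above 0 and 1 below, against 5.64% and 3.06% of all probe sets. These were RpS29 at 0.45 ± 0.15, RpS19b at 0.57 ± 0.22 and RpL7-like at -0.65 ± 0.23 (SE), with limma adjusted p-values of 0.452, 0.521 and 0.491.

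RpS29 is also outside the rule for named genes. It had 8109, 7704 and 8173 in aggressive I, against 7522, 6994 and 6660 in neutral I, and 7208, 7138 and 7610 in aggressive II, against 8368, 8084 and 8334 in neutral II. Aggressive I lay wholly above neutral I and aggressive II wholly below neutral II. Over both regimes its log2 difference was 0.020 ± 0.099 (SE, n = 6 each, limma adjusted p = 0.983).

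When each gene was expressed relative to the median of the 27 on the same array, its range over the 12 arrays was 0.16 (RpL29) to 0.92 (RpS27A) on the log2 scale, and 24 of 27 stayed under 0.5. For 0 of 27 did the relative values separate aggressive from neutral arrays. RpS27A stood at -0.43 relative to the array median on the third neutral I array and between -1.34 and -0.85 on the other 11. The RpL37A probe set stood at -0.28 on the first aggressive II array and between 0 and 0.45 elsewhere. The median within-population SD of the standard genes was 0.12 in log2 units, against 0.30 for the second copies and assembly factor relatives together and 0.29 for all probe sets. No such SD was taken for the bright non-members, so the part of signal level in this was not tested. RpL27, with 122719, 120918 and 126686 in aggressive I, 117977, 121061 and 112127 in aggressive II, 106820, 107782 and 121380 in neutral I and 112052, 113117 and 115175 in neutral II, had the smallest range, 1.19-fold over all 12 arrays.

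The relation of the subunits to each other was then taken per array. The median of the 16 standard large subunit probe sets minus that of the 11 small subunit ones was -0.23 ± 0.039 for aggressive I, -0.32 ± 0.082 for aggressive II, -0.31 ± 0.088 for neutral I and -0.30 ± 0.064 for neutral II (log2, SD, n = 3 each). On single arrays it ran from -0.41 to -0.19, and the arrays of all populations overlapped.

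Other genes of translation were taken from lists of their own. In aggressive minus neutral, 0 probe sets of any of these lists passed after adjustment, in the same fit in which 0.0716% of all probe sets did. Rack1, a scaffold protein of the small subunit that carries another symbol, had a log2 difference of 0.087 ± 0.085 (SE, n = 6 each, limma adjusted p = 0.895). The 6 elongation and termination factors had 2 above 0 and a median of -0.018, and the 45 probe sets of 38 initiation genes had 30 above 0 and a median of 0.037. Among the initiation factors, eIF1, which helps to select the start codon, averaged 27132 ± 4103 for aggressive I, 23947 ± 253 for aggressive II, 22539 ± 691 for neutral I and 19445 ± 2507 for neutral II (SD, n = 3 each). The regime estimate for eIF1 was 0.30 ± 0.11 (SE, limma adjusted p = 0.607).

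The 66 probe sets of 64 mitochondrial ribosomal proteins, which build the separate ribosome of the mitochondrion, had 42 above 0 and a median of 0.036. Of these, 6 reached an unadjusted p of 0.05 in the higher direction and 0 in the lower, against 3.62% and 3% of all probe sets, among them mRpL40 at 0.29 ± 0.099 (SE, limma adjusted p = 0.539). The 18 probe sets of 15 tRNA synthetases, which load amino acids onto transfer RNA, had 12 above 0 and a median of 0.068, and TyrRS had the smallest p of the list at a log2 difference of 0.39 ± 0.15 (SE, limma adjusted p = 0.627).

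The 23 probe sets of 20 ribosome biogenesis genes had 10 above 0 and a median of -0.0099. Mat89Ba, a nucleolar protein, had a log2 difference of -0.40 ± 0.15 (SE, limma adjusted p = 0.627). The gene with the next smallest p, nclb, went the other way, at 0.205 ± 0.0855 (SE, limma adjusted p = 0.699). Fib, the methyltransferase fibrillarin that modifies ribosomal RNA, had -0.38 ± 0.17 (SE, limma adjusted p = 0.749). The 13 probe sets of 11 growth control genes, which act in insulin, TOR and Myc signalling, had 3 above 0 and a median of -0.090. The kinase Akt averaged 1785 ± 145 for aggressive I, 1149 ± 276 for aggressive II, 2224 ± 297 for neutral I and 1903 ± 196 for neutral II (SD, n = 3 each), a log2 difference of -0.48 ± 0.18 (SE, limma adjusted p = 0.633).

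**Figure D5:**
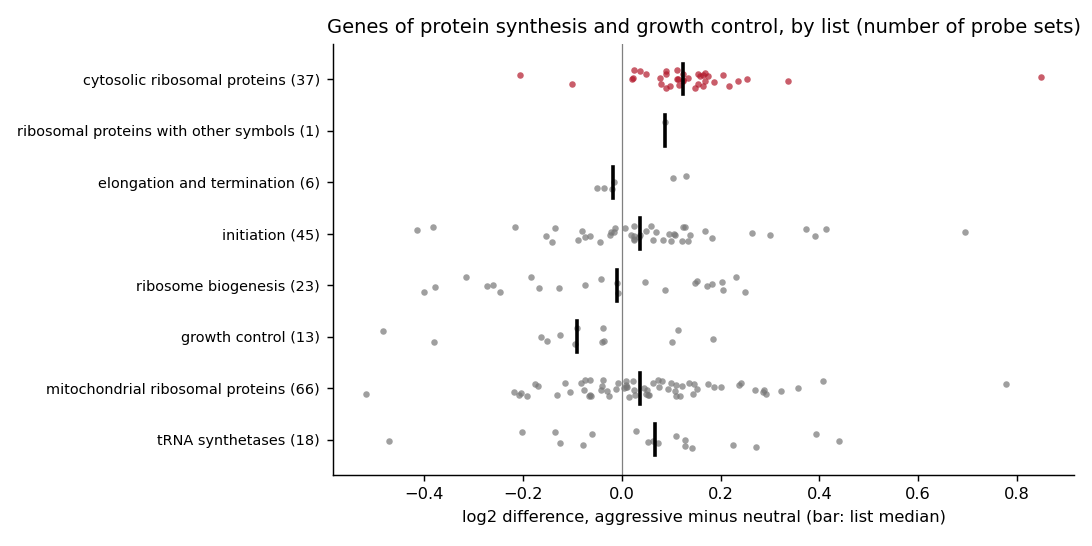
Log2 differences between the aggressive and neutral populations for the ribosomal protein probe sets and for the other lists of translation and growth genes, with a point for each probe set and a mark at each median. The cytosolic ribosomal proteins have 35 of 37 points above 0 and a median of 0.12, and the other lists have medians between -0.090 and 0.087.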

How the data were processed

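RNA from heads was hybridised to 1-colour Affymetrix arrays, 1 per sample. The deposited values are linear intensities made with MAS5, per the submitters' processing notes. Its release is not given in the sources used here. From the values, the authors had scaled each array to a trimmed mean of 2500 after setting aside the lowest and highest 2%. Probe sets were named from the array's annotation, 12443 with 1 gene, and all 37 members matched the RefSeq table (Release 6 plus ISO1 MT). Apart from the release of that table no genome build is named, and no sequence was used here.

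Values were transformed as log2(intensity + 94.6), where the added constant is the 10th percentile over the whole table, and then centred on each array's median. All 13966 probe sets that are not controls entered limma 3.58.1 (R 4.3.3), tested on simulated data, with Benjamini-Hochberg adjustment at 0.05. Fold changes on this scale understate those of dim probe sets. The regime comparison used population as a random block (consensus correlation 0.0113), and the other comparisons fixed population means. The number of arrays limits the precision, and there are 2 populations per regime.

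The members, lists and rules were chosen with earlier results of these data known. Named members are those with the largest differences per subunit and comparison, the brightest and dimmest, those under the 40th percentile, the stalk, the ubiquitin fusions and the duplicated genes. For the other lists, the 3 smallest p-values were eligible. Alternatives changed the centring, pseudocount, filter, variance model and blocking, or left out arrays or populations. Same-numbered arrays of different populations did not deviate together (18 pairs, correlations -0.057 to 0.032). This cannot show whether they were prepared together.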

Additional observations from a re-analysis of the deposited data

Results flagged for a closer look

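RpS29 differed in direction between the I and the II populations. All 3 aggressive I arrays were above the 3 neutral I arrays, and all 3 aggressive II arrays were below the 3 neutral II arrays, with a difference between the pairs of 0.4486 on the log2 scale (SE 0.147). Its unadjusted p was 0.012 in limma and its limma adjusted p was 0.452, so the difference did not pass. Of all 13966 probe sets, 215 (1.54%) were apart in opposite directions in this way, and 1 of the 37 ribosomal protein probe sets was.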

How the results depend on the processing

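The data were analysed under 29 other settings, 1 of which was chosen after seeing the data (the third aggressive II and first neutral I arrays left out). The count of ribosomal protein probe sets passing between regimes was 0 in every setting, and the only count above 0 in another comparison was 1, RpL10Aa in neutral I minus neutral II, in the setting chosen after seeing the data. The count over all probe sets between regimes was 10 and moved to 16 and 25 with filters at the 40th and 60th percentile, 36 with trended and robust variance, and 36 with fixed population means. It was 5 with the replicate number as a block, although same-numbered arrays did not deviate together, and 3 without the second array of aggressive I and the third of neutral I. It was 2 without the third array of aggressive II and the first of neutral I, and 3 to 10 without 1 array in turn. It was 42 without aggressive I, 44 without aggressive II, 23 without neutral I and 2 without neutral II. With 1 mean per population it was 0, where 767 probe sets, 0 of them ribosomal, had an unadjusted limma p under 0.05.

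Between regimes, the median difference of each subunit was above 0 in every setting. It was lowest under quantile normalisation, 0.031 for the large and 0.027 for the small subunit, against 0.13 and 0.11 as reported. Centring on the brightest 5% gave 0.065 and 0.051, and leaving out aggressive I gave 0.067 and 0.052. Without 1 array in turn it was 0.10 to 0.17 for the large and 0.080 to 0.16 for the small subunit. This did not hold between single populations, where the medians of aggressive II minus neutral II and the large subunit medians of neutral I minus neutral II and of the difference between the pairs changed sign or reached 0.

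Only the members named by the rule and RpS29 were followed gene by gene. Above 0 were 16 of 22 large and 9 of 15 small subunit members under quantile normalisation and 18 and 12 with centring on the brightest 5%, against 22 and 13 as reported, so further genes turned sign. Of the genes followed, these turned, none of them past the threshold, and the cause was not tested. Quantile normalisation gave -0.039 for RpL10Ab, -0.069 for RpLP0 and -0.12 for RpLP2. Centring on the brightest 5% gave -0.041 for RpL24-like, -0.014 for RpLP0, -0.038 for RpLP2 and -0.043 for RpS29. Without the second array of aggressive I and the third of neutral I, RpL24-like was -0.020, RpLP2 -0.0081, RpS27A 0.0049 and RpS29 -0.031. Without the third array of aggressive II and the first of neutral I, RpL10Aa was -0.081. Without aggressive I, RpLP2 was -0.025, RpS19b -0.043 and RpS29 -0.066. Without aggressive II, RpL24-like was -0.056, RpL7-like -0.070 and RpS27A 0.016. Without neutral I, RpLP2 was -0.065, RpS19b -0.015 and RpS29 -0.12. Without neutral II, RpL10Aa was -0.45, RpL7-like -0.075 and RpS28a 0.14. Without 1 array in turn, RpL24-like ran from -0.034 to 0.086, RpLP2 from -0.0048 to 0.061, RpS27A from -0.19 to 0.0064, RpS28a from -0.54 to 0.027 and RpS29 from -0.028 to 0.049. Signal near the bottom of the range limits RpL10Aa, RpL22-like, RpS19b, RpS28a and RpS10a.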
